A study of Mus musculus with 5 samples.

Results

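The comparison set Flk1-positive cardiac mesodermal cells, isolated from mouse embryoid bodies at day 4.5, against day 0 stem cells that were undifferentiated and Rex1-positive. Both populations were hybridised together on 1 array of the 5 in the series, with Flk1 RNA in Cy5 and Rex1 RNA in Cy3, and every probe of that array was used. It measured 24801 genes and transcripts, of which 14961 had a gene name and 9840 were unnamed transcripts. Embryoid bodies are aggregates of differentiating stem cells grown in culture, and the labels describe all populations as isolated marker-positive cells of embryoid bodies. The other arrays added early mesodermal cells of day 4.5, positive for Bra, and cardiac progenitor cells of day 7.5, positive for Nkx2.5. The labels name neither the cell line nor how cells were sorted, nor whether cells of several cultures were pooled. A single array per pair, with the dyes never exchanged, means that no value has a spread between samples and no p-value was possible.

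Flk1 is the protein of Kdr, the main signalling receptor for VEGF. During gastrulation, cells leave the epiblast through the primitive streak and become mesoderm, and mesoderm that carries Flk1 can give rise to endothelium, blood and heart. Rex1 is the protein of Zfp42, a zinc finger gene used as a marker of the naive stem cell state, in which Pou5f1, Sox2 and their partner genes maintain self-renewal.

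In the Flk1 population, some genes of endothelial and blood progenitors (Lmo2, Sox18, Etv2, Ctla2a, Gng11) were higher than in the Rex1 population. So was the primitive streak gene Fst. The differences were 2.31 to 3.43-fold on the direct array after normalisation within each print block. The progenitor genes were 3 of 21 listed transcription factors and 2 of 24 endothelial genes, and the others did not pass under both normalisations. All gene lists were written with earlier results of these data known, so counts of their members are descriptions. Sox18 and Etv2 did not reach a fold of 2 along a longer route through the Bra arrays. The streak genes Fgf8 and Sp5 were higher too, but were not well above background in Rex1 on the direct array, so the size of their difference is uncertain. Stem cell genes (Zfp42, Fbxo15, Tdh, Klf5, Tcl1, Mageb16, Spp1, Tspan8, Dppa2, Rex2) were lower by 2.21 to 4.70-fold. The core factor Pou5f1 differed little, with log2 ratios of -0.07 and -0.04. None of 18 measured sarcomere genes passed in either direction. Only 0.141% of all genes passed as higher and 0.202% as lower under both normalisations, so this absence says little.

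Each gene was read along separate routes. The direct reading is the log2 ratio on the array that carried both populations. The second reading is the ratio of Nkx2.5 over Rex1 minus that of Nkx2.5 over Flk1, from 2 arrays that the direct reading does not use, with Flk1 and Rex1 both in Cy3. A gene passed as higher or lower where the direct and the second reading were both at least 1 in size on the log2 scale, a fold of 2, and the brighter population was well above background on the direct array, meaning above percentile 95 of 96 negative control spots. After loess normalisation over the whole array, 170 of 24801 genes were higher (0.685%) and 66 lower (0.266%). The direct and second readings differed by an SD of 0.439 over all genes, which gives an error of 0.253 for 1 array when the arrays are taken to err equally and independently. This value covers hybridisation and dye, not the spread between cultures.

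The position of a probe on the array mattered for the higher genes. The spots lay in 48 print blocks, in 12 rows of 4, and the last rows, 11 and 12, held 4040 of the 24801 genes. Of the 170 higher genes 142 lay there, which was 3.51% of the genes in those rows against 0.135% in rows 1 to 10. The lower genes were spread, with 7 of 66 in rows 11 and 12. Of the 107 higher genes for which Rex1 was not well above background, 103 lay in these rows.

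The Cy3 channel, which held Rex1 on the direct array, differed in these rows. On the direct array the Cy3 background was 9484 in row 11 and 9262 in row 12 against a median of 7887 in rows 1 to 10, and the net Cy3 signal was 1922 and 2050 against 2890. The net Cy5 signal of Flk1 was 3708 and 2968 against 3425. The Cy3 background was raised in rows 11 and 12 also where Cy3 did not hold Rex1. It was 7958 and 8192 against 6664 on the Nkx2.5 over Bra array, and 7370 and 7358 against 5978 on the Nkx2.5 over Flk1 array. The median direct ratio was 0.63 in row 11 and 0.24 in row 12, and lay between -0.13 and 0.02 in the other rows. Row 11 also had the highest median on each of the other 4 arrays, between 0.19 and 0.44. In the second reading, a difference of 2 of these arrays, most of the shift of row 11 cancelled, and its 4 blocks had medians of 0.0068 to 0.23 against 0.54 to 0.65 in the direct reading. The row 11 blocks with the largest second medians, 0.17 and 0.23, held 35 and 38 of the higher genes. In row 12 less cancelled, with second medians of -0.02 to 0.16 against direct medians of 0.08 to 0.55. Its last block went from 0.08 to 0.13. With loess within each print block, which sets every block to a median near 0, 40 genes were higher (0.161%) and 64 lower (0.258%), of which 35 and 50 also passed with loess over the whole array (0.141% and 0.202% of all genes). The SD of the gap between readings fell to 0.369, but the SD of the direct reading itself fell from 0.427 to 0.324. Under both normalisations the gap was thus wider than the spread of the direct ratios.

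**Figure D1:**
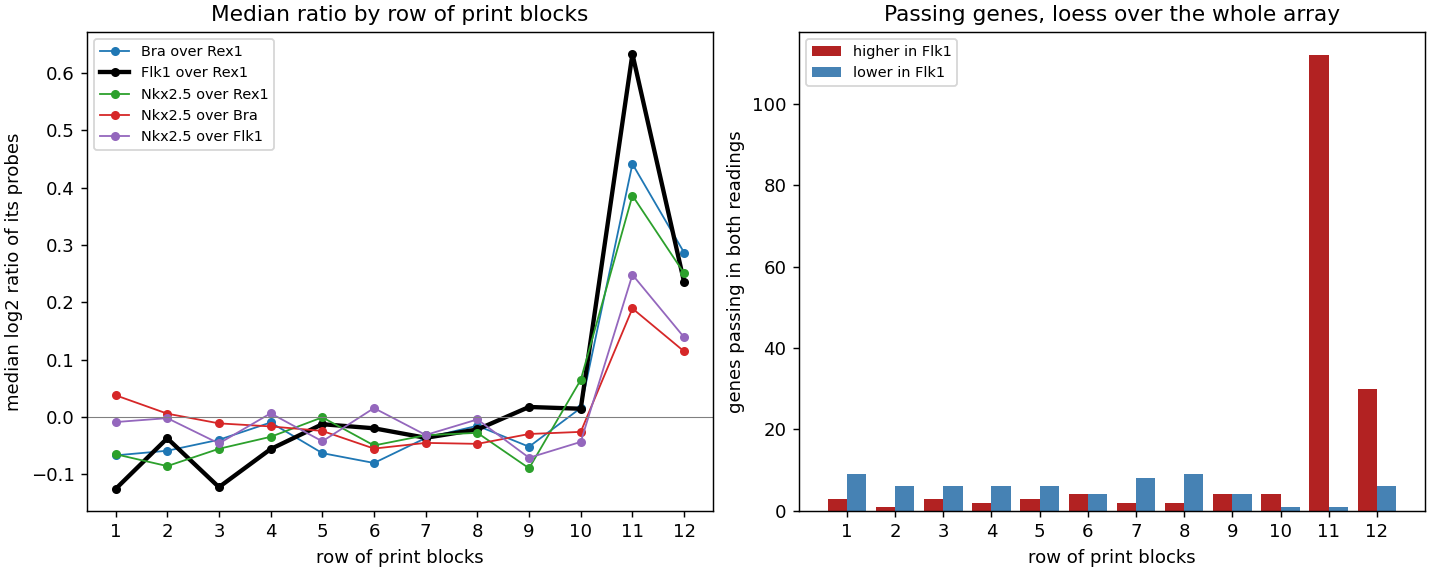
The left panel plots the median log2 ratio of the probes in each of the 12 rows of print blocks for the 5 arrays, after loess over the whole array, and the right panel counts the genes that passed as higher or lower in Flk1 in each row. Rows 11 and 12 stand above the other rows on every array, and 142 of 170 higher genes but 7 of 66 lower genes lie in them.

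The 35 higher and 50 lower genes that passed under both normalisations are therefore described first, and readings given below come from loess within each print block unless the whole array is named. Of the 35, 28 had a gene name, 19 were well above background in both populations, and 14 lay in rows 11 and 12. These 14 were 0.347% of the genes in rows 11 and 12, against 0.101% in rows 1 to 10, so an excess remained. For 12 of the 14, Rex1 was not well above background. Of the 50, 29 had a name, 46 were well above background in both populations, and 7 lay in rows 11 and 12 (0.173% against 0.207% in rows 1 to 10). Unnamed transcripts, which the files do not pair with a gene symbol, stood at both ends, with ENSMUST00000036708 lower at -3.17 and -2.98 and ENSMUST00000025946 higher at 1.84 and 3.07. By the smaller reading the first was the lowest of the 50, while Mmp2 and Cpe were above the second among the 35.

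**Figure D2:**
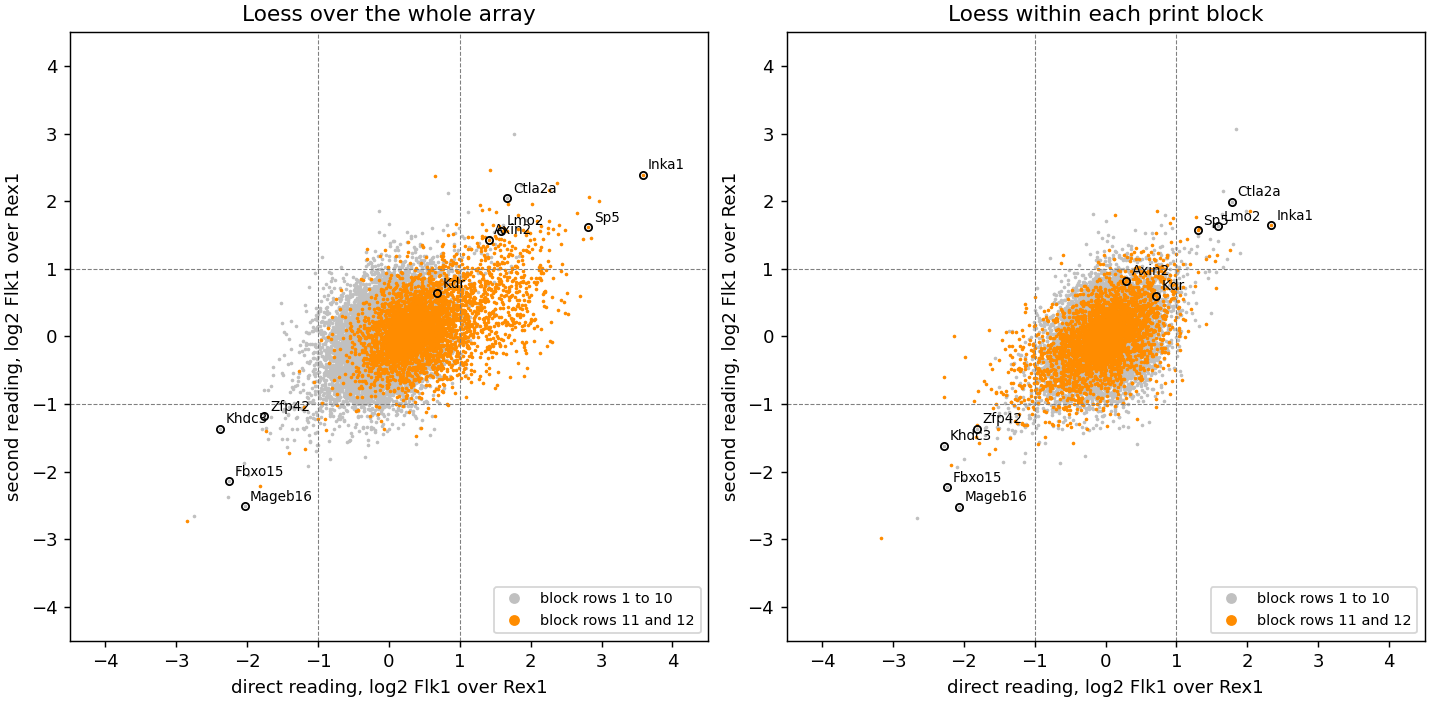
Each point is a gene or transcript, with its direct reading on the x axis and its second reading on the y axis, both log2 ratios of Flk1 over Rex1, and dashed lines at 1 and -1. With loess over the whole array (left) the genes of block rows 11 and 12, in orange, reach to the right of the others. With loess within each print block (right) they overlap them, and Axin2 no longer passes while Lmo2, Ctla2a, Sp5 and Inka1 still do.

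The sort markers were measured first. Zfp42 had a net Cy3 signal of 15044 in Rex1 and a net Cy5 signal of 5714 in Flk1 on the direct array, and was lower in Flk1 at -1.81 and -1.37. Kdr had 7188 in Flk1 and 3911 in Rex1, with ratios of 0.71 and 0.61, so the gene of the sorted protein did not reach a fold of 2. Its signal in the Rex1 population was well above background on all 3 arrays, between 3323 and 3911. T, the gene of Brachyury and a driver of mesoderm formation, had ratios of 0.84 and 0.60. Nkx2-5, the cardiac homeobox gene that defines the day 7.5 population, had 0.04 and -0.86, so its readings disagreed.

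Transcription factors of the hemangioblast, the common progenitor of blood and endothelium, were represented by 21 genes, of which 3 were higher and 0 lower under both normalisations. Over all genes 0.141% were higher and 0.202% lower by this rule. Lmo2, an adaptor that joins DNA-binding factors in blood and endothelial progenitors, had net signals of 1866, 1918 and 2177 on the 3 Rex1 arrays and 6535 and 9782 on the 2 Flk1 arrays. Its ratios were 1.59 and 1.63, so the direct array gave 3.01 times as much signal in Flk1. Sox18, an endothelial factor of the Sox family, had 1524 to 2006 in Rex1 against 4846 and 6976 in Flk1, and ratios of 1.30 and 1.49. Etv2, an ETS factor required for both lineages, had 2889 to 4154 in Rex1 against 10046 and 14337 in Flk1, and ratios of 1.21 and 1.30. For these genes the signals of the populations did not overlap between arrays, although signals of different arrays are not on 1 scale. A longer route through the Bra arrays gave 1.48 for Lmo2 but 0.81 for Sox18 and 0.94 for Etv2, which fall short of 1.

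The other hemangioblast factors did not pass the rule, though some had positive ratios in both readings. Hhex had 0.63 and 0.72, Tal1 0.10 and 0.16, Fli1 0.17 and 0.10, Runx1 0.10 and 0.16, Gata2 0.00 and -0.08, and Gata1 0.16 and 0.00. The median over the 21 genes was 0.10 in the direct and 0.15 in the second reading, against 0.005 and -0.001 over all genes. Sox17, at 1.21 on the direct array with loess over the whole array, lay in row 11 and had 0.33 and 0.23 within its block. The 2 probes of Erg disagreed over the whole array, at -0.39 and 0.74, and the dimmer one was not well above background in Rex1.

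Of 24 measured endothelial genes, 3 were higher over the whole array and 2 of them within blocks, with none lower. Over all genes 0.685% were higher over the whole array and 0.161% within blocks. Ctla2a, an inhibitor of cysteine proteases, had 1407 to 1922 in Rex1 and 5899 and 8238 in Flk1, and was higher at 1.78 and 1.99. Gng11, a G protein gamma subunit gene, had 1057 to 1471 in Rex1, where it was above background on 2 of 3 arrays, and 4104 and 5781 in Flk1, with ratios of 1.64 and 1.82. Egfl7, a secreted factor of endothelium, lay in row 12 and went from 1.07 and 1.34 over the whole array to 0.86 and 1.06. Genes of mature vessels had small ratios, with Cdh5 at 0.33 and 0.14, Pecam1 at 0.05 and -0.09, and Cldn5 at -0.57 and -0.47, while the angiopoietin receptor gene Tek had 0.99 and 0.68. A dimmer probe of Pecam1 had 0.74 and 0.49 over the whole array. Stab1, a scavenger receptor gene, had the lowest direct reading of the list, at -0.74 with -0.24 in the second, but its other probe had 0.62 on the direct array over the whole array. The list median was 0.30 and 0.12.

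Among 9 genes of VEGF ligands and receptors 1 was higher within blocks, against 0.161% of all genes. This was the coreceptor gene Nrp1, at 1.42 and 1.15. It lay in row 11 and was not well above background in Rex1 on any of 3 arrays, with net signals of 697 to 1167 against 3811 and 5923 in Flk1. Its relative Nrp2 had -0.19 and -0.26, the VEGF receptor genes Flt1 and Flt4 had -0.15 and 0.02, and -0.18 and 0.39, and Vegfa itself had -0.02 and -0.43. Flt1 stays uncertain, since over the whole array its other bright probes had 1.60 and 0.93, and 0.86 and -0.46. The 4 probes of Vegfa had direct ratios from -0.06 to 0.79 over the whole array. Blood genes were represented by 15 members, of which 1 was higher under both normalisations, against 0.141% of all genes. This was Car2, a carbonic anhydrase gene of red cells and other tissues. Its 2 probes gave direct ratios of 1.35 and 1.01 over the whole array, and the brighter had 1.19 and 1.08 within its block. The embryonic globin gene Hbb-bh1 had 1.49 on the direct array but 0.35 in the second reading, and Hba-x had -0.20 and 0.19.

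Primitive streak genes formed a further group, with 4 of 27 members higher over the whole array, 3 of them within blocks, and 0 lower. Over all genes 0.685% were higher over the whole array and 0.161% within blocks. Fst, the gene of the activin antagonist follistatin, had 1295 to 2467 in Rex1 and 6535 and 8048 in Flk1, with ratios of 1.76 and 1.29. Fgf8, which encodes a fibroblast growth factor of the streak, had 997 to 1909 in Rex1 and 3605 and 5268 in Flk1, with 1.79 and 1.37. It was not well above background in Rex1 on 2 of 3 arrays, the direct one included, and its other probe had -0.01 on the direct array over the whole array and 0.87 in the second reading. Sp5, a target of Wnt signalling, was dim in Rex1 on all 3 arrays, between 0 and 1223, against 3187 and 3038 in Flk1. Its ratios were 2.81 and 1.62 over the whole array and 1.30 and 1.57 within its block in row 11, and its Rex1 signal gave an estimated bound of at least 2.31-fold, set over the whole array and open to dye bias. Axin2, another Wnt target in row 11, passed over the whole array at 1.41 and 1.43 and had 0.29 and 0.82 within its block. The homeobox gene Mixl1, at 0.88 and 1.21, and the T-box gene Eomes, at 0.69 and 1.01, reached 1 in the second reading alone, and the other probe of Eomes had 0.12 and 0.09 over the whole array.

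In the Wnt, FGF, and BMP and TGF-beta pathways 1 or 2 members passed. Over all genes 0.685% were higher and 0.266% lower over the whole array, and 0.161% and 0.258% within blocks. Counts this small were not compared with those shares. Of 27 Wnt pathway genes 2 were higher over the whole array and 1, Sp5, within blocks, and the antagonist Nkd1 had -0.31 and -0.23. Of 17 FGF pathway genes only Fgf8 was higher, and the inhibitor Spry1 had -0.44 and 0.65. The probes of Fgf5 disagreed over the whole array. The brightest had 0.07 and 0.31, another 0.82 and -0.20, and the dimmest, not well above background in Rex1, 1.78 and 1.53. Of 34 genes of the BMP and TGF-beta pathway Fst was higher and Bmp4 lower under both normalisations. Each pathway median lay between 0.03 and 0.28 in both readings within blocks.

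Cdh2, the gene of N-cadherin, which epithelial cells gain as they become mesenchymal, had 1831 to 1984 in Rex1 and 5114 and 6915 in Flk1, and was higher at 1.41 and 1.18. It was the only one of 18 cadherin and mesenchymal transition genes to pass, and Twist2 had the lowest direct reading of the 18, at -0.25 with -0.42 in the second. Of 27 genes of lateral and cardiac mesoderm none was higher. Bmp4, a ligand that induces mesoderm, was lower at -1.07 and -1.20, with 5582 in Rex1 and 3689 in Flk1 on the direct array. Cardiac factors had small or unequal ratios, with Mesp1 at 0.18 and 0.66, Hand1 at 0.03 and 0.00, Isl1 at 0.48 and -0.08, Gata4 at 0.31 and 0.13, and Tbx5 at 0.69 and 0.32. None of 18 measured sarcomere genes passed under either normalisation, and the troponin gene Tnni3 had -0.53 and -0.88. Within blocks 0.161% of all genes were higher and 0.258% lower, so absence from lists this short says little.

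Of 32 measured pluripotency genes 10 were lower and 0 higher under both normalisations, against 0.202% and 0.141% of all genes. The list median was -0.77 and -0.44. Because the list was written with earlier results of these data known, its count and median are descriptions. Fbxo15, an F-box gene that marks stem cells, had 7174 to 8339 in Rex1 and 2725 and 2560 in Flk1, with ratios of -2.23 and -2.23. Tdh, the threonine dehydrogenase on which mouse stem cells depend, had 13385 to 14196 in Rex1 and 5618 and 5734 in Flk1, with -1.70 and -1.46. Klf5, a Krüppel-like factor of self-renewal, had -1.32 and -1.38, and its 2 probes agreed at -1.36 and -1.34 on the direct array over the whole array. Tcl1, a coactivator of AKT signalling, had -1.53 and -1.34. The other members that passed were Mageb16 at -2.07 and -2.52, Spp1, the osteopontin gene, at -2.0 and -1.81, Tspan8, a tetraspanin gene, at -2.10 and -1.93, Dppa2 at -1.14 and -1.73, Rex2 at -1.36 and -1.12, and Zfp42. Dppa2 is less certain. Its Flk1 signal was 4344 on the direct array but 7016 on the Nkx2.5 over Flk1 array, within its Rex1 range of 6338 to 7048. The route through the Bra arrays gave -0.88 for Dppa2, short of -1.

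The remaining 22 pluripotency genes did not pass, and they include the best known regulators. Sox2 had -0.97 and -0.63, Nr0b1 -0.82 and -0.69, Klf2 -0.35 and -0.38, Klf4 0.05 and -0.02, Esrrb -0.14 and 0.15, and Sall4 0.20 and 0.19. Pou5f1 was bright in both populations, with 12616 in Rex1 and 13330 in Flk1 on the direct array. Nanog lay in row 12 and had 0.08 and -0.81 over the whole array, and -0.78 and -0.91 within its block. Gdf3, at -1.39 and -0.87, and Gbx2, at -1.57 and -0.32, passed 1 on the direct array alone. Tbx3, which acts in stem cells and in heart, went the other way at 0.78 and 0.22.

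Promoter sequences of the genes that moved were searched for short motifs, because the lower genes include known targets of the stem cell factors and Sp5 is a Wnt target. The sequences are those of RefSeq for assembly GRCm38.p6, and the 250 bases before each annotated start were searched on both strands for 17 motifs chosen after the ratios were seen. Shares of all genes given here are over the 27025 genes with a promoter sequence, which include genes that the array did not measure. The octamer ATGCAAAT, the textbook site of POU factors such as Oct4, was in 4 of 23 lower named genes that had a promoter in the table (17.4%), in 0 of 16 higher ones, and in 1.81% of 27025 genes. The stretches around it, read 5′ to 3′ on the strand of the gene, are shown with the octamer in capitals, which in Zfp42 reads in the opposite orientation.
Zfp42, chr8:43307158-43307225, minus strand: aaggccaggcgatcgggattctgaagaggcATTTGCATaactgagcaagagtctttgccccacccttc
Spp1, chr5:104435952-104436019, plus strand: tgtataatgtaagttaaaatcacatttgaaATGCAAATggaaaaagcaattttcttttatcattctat
Mageb16, chrX:79671584-79671651, minus strand: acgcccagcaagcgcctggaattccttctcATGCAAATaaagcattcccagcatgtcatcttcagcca
Tspan8, chr10:115817059-115817126, plus strand: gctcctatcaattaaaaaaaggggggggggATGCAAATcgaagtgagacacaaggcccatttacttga

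These 4 genes had direct readings of -1.81, -2.0, -2.07 and -2.10 in this order. The other 19 lower genes with a promoter in the table had direct readings from -2.28 to -1.01, with a median of -1.35. The motif CTTTGAT of TCF factors, which act in Wnt signalling, was in 3.72% of all genes and among the higher genes in Sp5 only, 104 bases before its start, shown with the motif in capitals.
Sp5, chr2:70474789-70474855, plus strand: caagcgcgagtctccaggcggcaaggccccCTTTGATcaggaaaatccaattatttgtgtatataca

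Other motifs were also frequent among the 23 lower genes, with CACGTG in 4 (17.4%, against 6.86% of all genes with a promoter sequence, measured or not) and GGGCGGG in 11 (47.8% against 25.7%). GGGCGGG was frequent among the higher genes too, in 7 of 16 (43.8%). The GATA motif AGATAA was in 4 of 16 higher genes (25%) and 0 of 23 lower genes against 11.4% of all genes, but in 10 of 111 higher and 2 of 30 lower genes when all that passed over the whole array were taken. The ETS motifs CCGGAAGT and CAGGAAGT were in 3.23% and 3.13% of all genes, in 0 of the 16 higher genes, and in 2 and 1 of the 23 lower genes. A match is a description of letters in this window, not of binding, and with so few genes these shares were not tested.

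Other lower genes by the rule for named genes were Khdc3, an oocyte and early embryo gene, at -2.28 and -1.61, Pogz at -2.18 and -1.91, Manba, a lysosomal mannosidase gene, at -1.69 and -1.34, Morc1, a germ cell gene, at -1.37 and -1.36, and Vmn2r37, from a large receptor family whose copies a probe may not tell apart, at -1.54 and -1.5. Prl8a8, Zfp120 and Rdh7, which were dim in Flk1 on the direct array, passed over the whole array but not within blocks. Among higher genes outside the lists, H4c9 had 1.51 and 1.63, with the reservation that histone H4 genes are nearly identical. Inka1, an inhibitor of PAK4 kinase, lay in row 11 and was not well above background in Rex1 on any of 3 arrays, with 20 to 84 against 4981 and 6884 in Flk1. Its readings were 2.33 and 1.64, and its estimated bound of at least 5.02-fold, set over the whole array, exceeds what the second reading gave within its block. Cpe, a carboxypeptidase that processes prohormones, had 2.04 and 1.85 and was above background in Rex1 on 1 of 3 arrays. Erap1, Mgst1 and Stk39 were dim in Rex1 on all 3 arrays, with direct readings of 1.27, 1.32 and 1.16 and estimated bounds over the whole array of at least 2.17-fold, 2.30-fold and 2.09-fold. All 4 lay in row 11.

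Genes that the whole-array setting ranked high but that did not pass within their blocks also lay in rows 11 and 12. Donson went from 1.68 and 1.96 to 0.71 and 1.54, Slc30a5, a zinc transporter gene, from 1.52 and 1.83 to 0.63 and 1.26, Uap1 from 1.43 and 2.46 to 0.73 and 1.86, and Gng10 from 1.41 and 1.88 to 0.53 and 1.27. Rap2b and Ncf4 ended at 0.59 and 0.96, and 0.41 and 0.89. Cd59a ended at 1.31 and 0.95, and Zik1 at 0.92 and 1.40. Each kept a positive sign in both readings within its block.

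**Figure D3:**
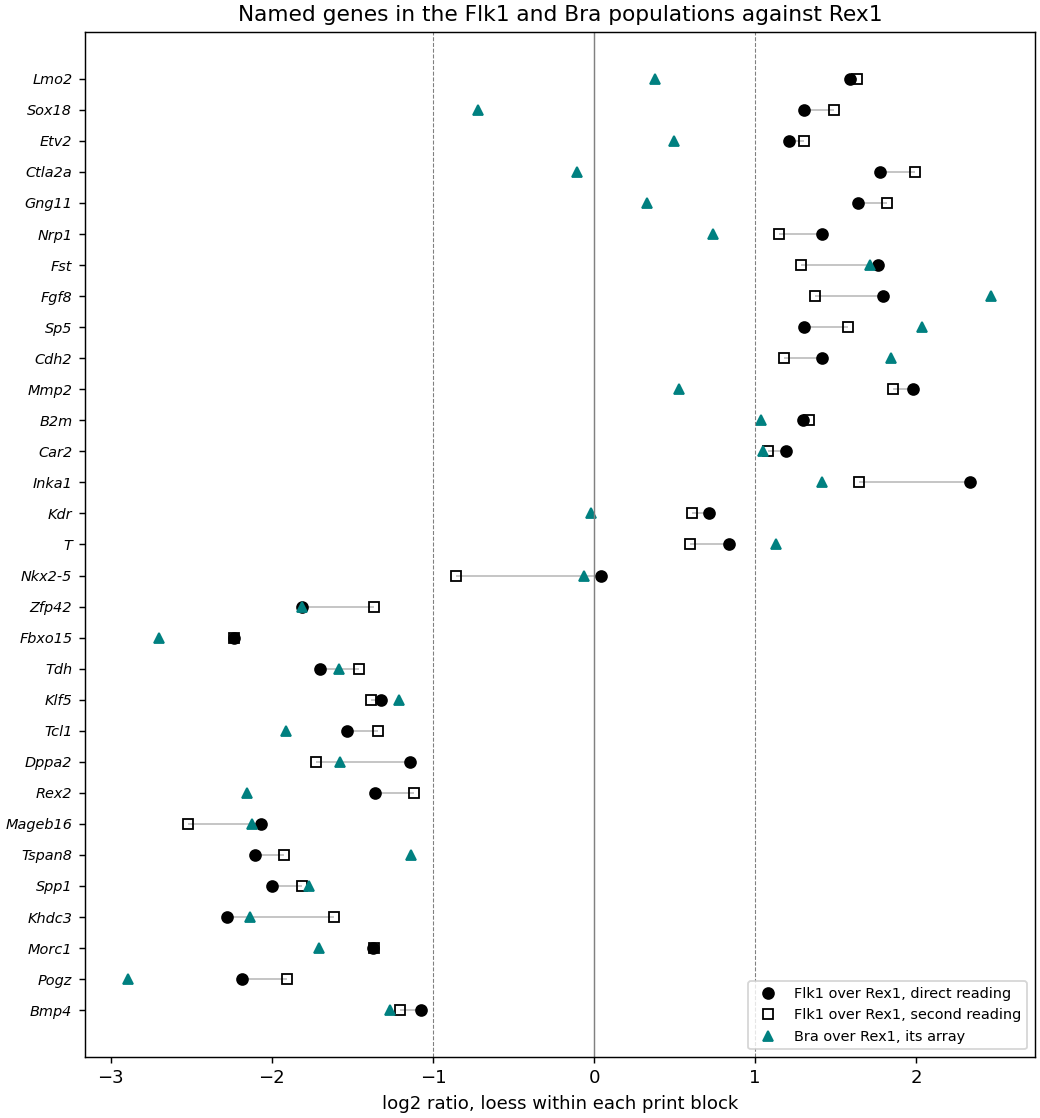
Filled circles are the direct and open squares the second reading of Flk1 over Rex1, and triangles the array of Bra over Rex1, all log2 ratios after loess within each print block, for 31 named genes. Lmo2, Sox18, Ctla2a and Gng11 have triangles well below their circles, Fst, Fgf8, Sp5 and Cdh2 have triangles at or above them, and the lower genes have triangles on the same side of 0.

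The Bra population of the same day was used to compare these genes between Flk1 cells and other mesoderm. Flk1 over Bra was read through Rex1 (the direct array minus Bra over Rex1) and through Nkx2.5 (Nkx2.5 over Bra minus Nkx2.5 over Flk1), routes that share no array with each other but share arrays with the readings above. A gene counted here where both routes were at least 1 in size, with the population of the higher signal above the background cut. Over all genes 7 were higher by this rule (0.0282%) and 1 was lower (0.00403%). The 35 higher genes were chosen on arrays that both routes use, so their overlap with these 7 is partly built in. Of those 7, 6 were among the 35 higher genes, namely Ctla2a at 1.88 and 1.96, Sox18 at 2.02 and 1.53, Gng11 at 1.31 and 1.45, H4c9 at 1.20 and 1.32, Lmo2 at 1.21 and 1.10, and the neurotensin gene Nts, dim in Rex1, at 1.13 and 1.34. The seventh was Dusp2, a phosphatase gene that acts on MAP kinases, at 1.69 and 1.11, and the lower gene was Rspo3, a secreted Wnt enhancer of the streak, at -1.24 and -1.08. Nts, Dusp2 and Rspo3 were named after their values were seen. Kdr had 0.73 and 0.72. Among the 35, Sox18 and Ctla2a were the only genes with Bra over Rex1 below 0, at -0.72 and -0.10.

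The streak genes stood in contrast. Flk1 over Bra was 0.05 and 0.39 for Fst, -0.67 and -0.39 for Fgf8, -0.73 and -0.47 for Sp5 and -0.43 and -0.27 for Cdh2. None of the 50 lower genes reached -1 in Flk1 over Bra along both routes. Tspan8 had -0.97 and -0.50, and Zfp42 had 0.00 and -0.11. Comparisons of Bra and of Flk1 with Rex1 use the same Rex1 population, so a shared shift there is counted in both. Of the 35 higher genes 19 were also past 1 in Bra over Rex1, and of the 50 lower genes 40 were past -1. The share of all genes past these values in Bra over Rex1 is not given here, so the overlap is only a description.

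**Figure D4:**
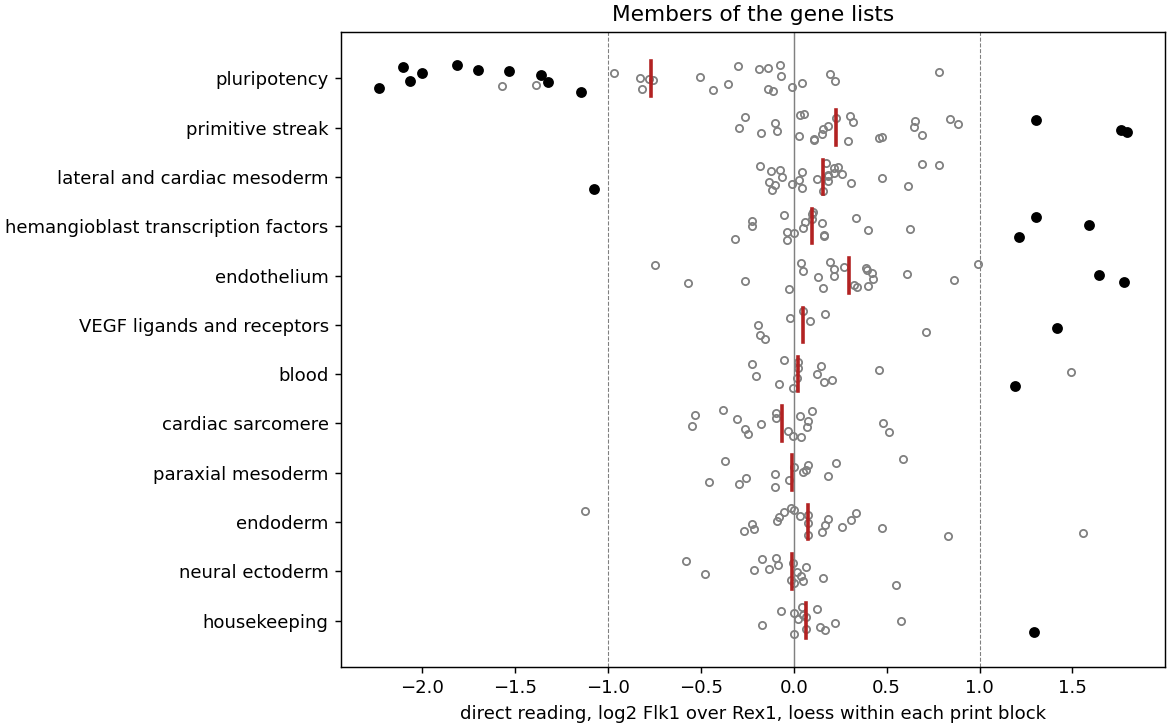
Each circle is the direct reading of 1 member of a list, after loess within each print block, filled where the gene passed in both readings under both normalisations, and the red bar is the list median. Pluripotency has 10 filled circles to the left of -1 and a median of -0.77, and the filled circles of the streak, hemangioblast and endothelium lists lie to the right of 1. The lists were written with earlier results of these data known.

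Markers of other cells that the isolated populations could hold were read in the same way, and their part in the results was not tested. Of the endoderm markers Afp, Ttr, Apoa1, Sox17 and Foxa2 none passed. Apoa1, an apolipoprotein gene, came closest at 1.56 and 0.95, and Afp, in row 11, had 1.89 and 0.62 over the whole array and 0.83 and 0.26 within its block. Neural markers Sox1, Pax6, Nes and Tubb3 had direct readings of -0.58, -0.09, 0.04 and -0.17. The fibroblast genes Col1a1, Col1a2, Thy1 and Postn did not pass, but 1 of 12 fibroblast list members, the gelatinase gene Mmp2, did, at 1.98 and 1.86, with Rex1 above background on 1 of 3 arrays. Cardiomyocyte markers Myl7, Tnnt2 and Myh6 had direct readings of 0.08, -0.09 and -0.26. None of the lists of 22 endoderm, 16 neural, 14 paraxial mesoderm, 13 primed epiblast, 17 Notch, 23 Hox, 24 extracellular matrix, 27 cell cycle and 15 dissociation stress genes held a passing member. Each gene was read on its brightest probe, and a dimmer probe of Fgf5, a primed epiblast gene, was past 1 in both readings over the whole array. With 0.161% of all genes higher and 0.258% lower within blocks, absence from lists this short says little. Of 15 housekeeping genes 1 passed, B2m, the light chain of class I MHC molecules, at 1.29 and 1.34, and 1 of its 3 probes had 0.45 over the whole array. In RNA of mixed cells, fewer cells of a type and less RNA per cell cannot be told apart.

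The direct array alone would have given longer lists. With loess over the whole array 770 genes were past 1 (3.1%) and 181 past -1 (0.73%), and 600 and 115 of these did not pass in the second reading. Of the 770, 694 lay in rows 11 and 12. With both populations well above background, 63 of 20881 genes were higher (0.302%) and 59 lower (0.283%). The repeated control spots, 24 per gene, had a mean of -0.04 and an SD of 0.04 for Actb, 0.09 and 0.03 for Gapdh, 0.03 and 0.04 for Rps18, and -0.10 and 0.06 for Ubb. Probes of Actb and Gapdh were bright, so these values say little about dim probes.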

How the data were processed

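Expression was measured on 5 two-colour oligonucleotide arrays of mouse RNA. Per the labels' protocols, RNA was purified on columns, amplified with amino allyl nucleotides and coupled to Cy3 or Cy5. Channel 1 of the files was taken as Cy3 and channel 2 as Cy5 from the order of the dyes in the labels, which sets the direction of every ratio. Per the file headers, each channel has a deposited intensity, a median signal and a background. Tested on the files, the signal already had the background subtracted, the background held 1 value per print block, and the deposited ratio was the quotient of the channel intensities. The deposited series table holds log2 values that equal the log2 ratio minus 1 constant per column (median of the Flk1 over Rex1 column -0.06, with 531 values on spots marked Bad whose origin stays unknown). Scanner software and gene model: not given in the sources used here.

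Foreground was rebuilt as signal plus background, background-corrected by normexp (offset 50) and normalised within arrays by loess that gave control spots no weight, using limma 3.58.1 in R 4.3.3, and Python 3.11.15 for tables. Of 28845 probes, 8056 were named by accession, 5228 by symbol and 5063 by synonym through a RefSeq table (GRCm38.p6), 574 kept the name in the files and 9924 had none. A gene was read on its brightest probe. For genes dim in Rex1 on all its arrays, a bound is given where it exceeded neither reading over the whole array. Spots marked Bad were kept (980 on the direct array, none well above background in both channels). The call rule was tested on made-up ratios.

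Named genes were the sort markers, Lmo2 and Sox18, by the smaller reading the 12 highest and 12 lowest passing genes with neither population dim, the 6 highest and lowest with 1 population dim, and passing and opposing members of the lists; other names were chosen after their values were seen. Members and the 24 gene lists (440 genes, 421 measured) were chosen with earlier results of these data known. Alternatives tried were other background corrections and normalisations, the series table, other probe rules and thresholds, and, added after seeing the data, 1 background per channel, rows 11 and 12 left out, and block loess with the route through Bra.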

Additional observations from a re-analysis of the deposited data

How the results depend on the processing

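The count of higher genes, 170 in the setting reported first, depended on the processing more than that of lower genes, 66. Higher genes numbered 40 with loess within each print block, 65 in the deposited series table, 256 with the second reading taken through Bra, 63 with both populations well above background, 770 on the direct array alone, 37 at a threshold of 1.5 and 0 without background correction. Lower genes numbered 40 on plain background-subtracted signals, 181 on the direct array alone, 11 at 1.5 and 0 without background correction. Without background correction the unchanged foreground of each channel is left in the ratio and shrinks it. Alternatives chosen after seeing the data gave 28 higher genes without block rows 11 and 12, 37 with block loess and the route through Bra, and 37 higher and 144 lower with 1 background per array and channel, where the median direct ratio turned to -0.20 in row 11 and -0.52 in row 12. The other alternatives kept both counts within 1.5 times. The share of higher genes among calls was 72.0% in the first setting, 38.5% with block loess, 84.2% on plain signals, 58.6% in the series table, 51.6% with both populations well above background, 32.2% without rows 11 and 12 and 20.4% with 1 background. The SD of the gap between readings was 0.109 without background correction and 1.11 on plain signals.

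The direct ratio of Slc30a5 turned to -0.0105, of Gng10 to -0.0283 and of Axin2 to -0.054 without background correction, and to -0.0350, -0.0987 and -0.331 with 1 background. The second ratio of Nrp1 was -0.0547 without background correction, and that of Rdh7 was 0.0890 through Bra. For Slc30a5, Gng10, Axin2 and Nrp1 the position in rows 11 and 12 goes with it, and the cause was not tested. The pluripotency list had 8 to 12 lower members under all alternatives except no background correction (0) and a threshold of 1.5 (5). No paired analysis was possible because each pair of populations was hybridised on 1 array with no replicate, and for the same reason no replicate could be left out. Depth limits genes dim in Rex1, where 84.4% of probes in Cy3 were well above background against 92.2% in Cy5.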
